A study of Mus musculus with 6 samples.

Results

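The platelet-derived growth factor (PDGF) family of the mouse comprises the ligand genes Pdgfa, Pdgfb, Pdgfc and Pdgfd and the receptor genes Pdgfra and Pdgfrb. These 6 genes, of 19057 with a single symbol on the array, were taken by name, as every probe that the platform annotation assigns to 1 of them, which gave 11 probes. They were measured in 6 mouse brain tumours, 1 bead array each, of which 2 had been induced with virus for HoxA5, a homeobox transcription factor, and 4 with virus for mCherry, a fluorescent protein used as the control. The question was whether raised HoxA5 alters the aggressiveness of tumours driven by PDGF.

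Both groups shared the driver. Chicken DF1 fibroblasts that produced RCAS virus for PDGFb were mixed with DF1 cells producing either HoxA5 or mCherry virus and injected into the right frontal cortex of adult mice. RCAS is an avian retrovirus that enters only mammalian cells carrying its receptor tva, and in Ntva mice tva is driven by the promoter of nestin, a gene of neural progenitors. The mice were Ntva-Ink4a/Arf+/- or Ntva-Ink4a/Arf-/-, thus lacking 1 or both copies of a tumour suppressor locus, on a background mixed from 129, BALB/C, C57BL6 and FVB/N. Neither the genotype of each mouse nor whether each tumour came from a mouse of its own is given in the sources used here, so each p-value weighs the groups against the spread of these arrays alone, which may be technical. Mice were watched until signs of illness, and no drug or other treatment is labelled.

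PDGF ligands are secreted dimers. The A and B chains are cut inside the cell by furin-like proteases, whereas the C and D chains are released with a CUB domain that plasminogen activators and similar proteases remove outside the cell. The α receptor binds A, B and C chains, the β receptor binds B and D chains, and both are tyrosine kinases that pair up when a dimer binds them and recruit phosphatidylinositol 3-kinase, phospholipase C, Ras regulators and STAT factors. In brain, Pdgfra marks oligodendrocyte progenitors and Pdgfrb marks pericytes, smooth muscle cells and fibroblasts of the vessel wall, while endothelial cells make Pdgfb and neurons and astrocytes make Pdgfa. Extra PDGF-B acts on progenitors with the α receptor, and virus for it gives glioma in Ntva mice.

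The sequences 5′ of the annotated starts of the α receptor gene and of the gene of its classical ligand are shown because these genes differed so much in how steady they were between tumours. Whether these sequences bear on that steadiness was not tested. Each run is the 250 bases before a start, read 5′ to 3′ on the gene's strand from RefSeq annotation of GRCm38.p6, and capitals mark CpG dinucleotides. The Pdgfra window lies at chr5:75152001-75152250 on the plus strand. The Pdgfa window lies at chr5:138994945-138995194 on the minus strand and belongs to the more upstream of 2 starts listed for that gene.
Pdgfra: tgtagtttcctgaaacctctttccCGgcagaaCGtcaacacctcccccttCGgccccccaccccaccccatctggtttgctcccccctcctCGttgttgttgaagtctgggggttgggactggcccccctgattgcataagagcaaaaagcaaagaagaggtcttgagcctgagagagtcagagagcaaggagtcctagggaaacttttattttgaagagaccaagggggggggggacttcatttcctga
Pdgfa: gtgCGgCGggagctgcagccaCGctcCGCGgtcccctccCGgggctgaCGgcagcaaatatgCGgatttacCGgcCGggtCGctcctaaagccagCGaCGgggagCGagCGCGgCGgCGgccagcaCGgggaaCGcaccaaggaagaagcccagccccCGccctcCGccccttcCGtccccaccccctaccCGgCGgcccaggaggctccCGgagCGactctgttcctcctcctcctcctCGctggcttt
The Pdgfa window held 28 CpG dinucleotides and was 72.4% G and C, a GC share above that of 93.6% of the 32851 windows of this length in the table. The Pdgfra window held 4 CpG dinucleotides and was 54.4% G and C, above 56.5% of the windows. The second Pdgfa start had 19 CpG dinucleotides (66.4% G and C), and the windows of Pdgfc and Pdgfd had 3 each (50.8% and 53.6%). The letters TAAT, the core recognised by many homeodomain proteins, were absent on both strands from all of these windows, and 54.9% of all windows held them. Windows of 4 of the 6 genes were examined. Pdgfb and Pdgfrb did not.

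None of the 5 PDGF genes with a signal above background passed the test between HoxA5 and mCherry tumours. Pdgfrb, Pdgfra, Pdgfb and Pdgfc had higher means in HoxA5 tumours, and Pdgfa was nearly level on all arrays. For each of the 5 genes the mCherry arrays spanned more log2 units than lay between the group means. For Pdgfra these were 2.00 against 0.78, and for Pdgfrb 2.87 against 1.32. Called here means a Benjamini-Hochberg adjusted p under 0.05 in limma's moderated test across 12242 genes, each by its brightest probe. By that rule 5.85% of genes were called, 1.21% higher and 4.64% lower in HoxA5 tumours, and 0 of the 5 PDGF genes were. Higher genes made up 20.7% of these calls, and 37.7% with median scaling in place of quantiles. At an unadjusted p under 0.05 the counts were 24.6% of genes and 0 of 5. For 35.5% of genes both HoxA5 values fell beyond all mCherry values on one side, and this held for 0 of 5 PDGF genes. The 5 genes were detected on all 6 arrays, so the filter on dim probes did not act on them. Levels below are log2 intensities after background correction and normalization, and a level of 1 gene cannot be set against that of another, since probes differ in brightness.

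**Figure D1:**
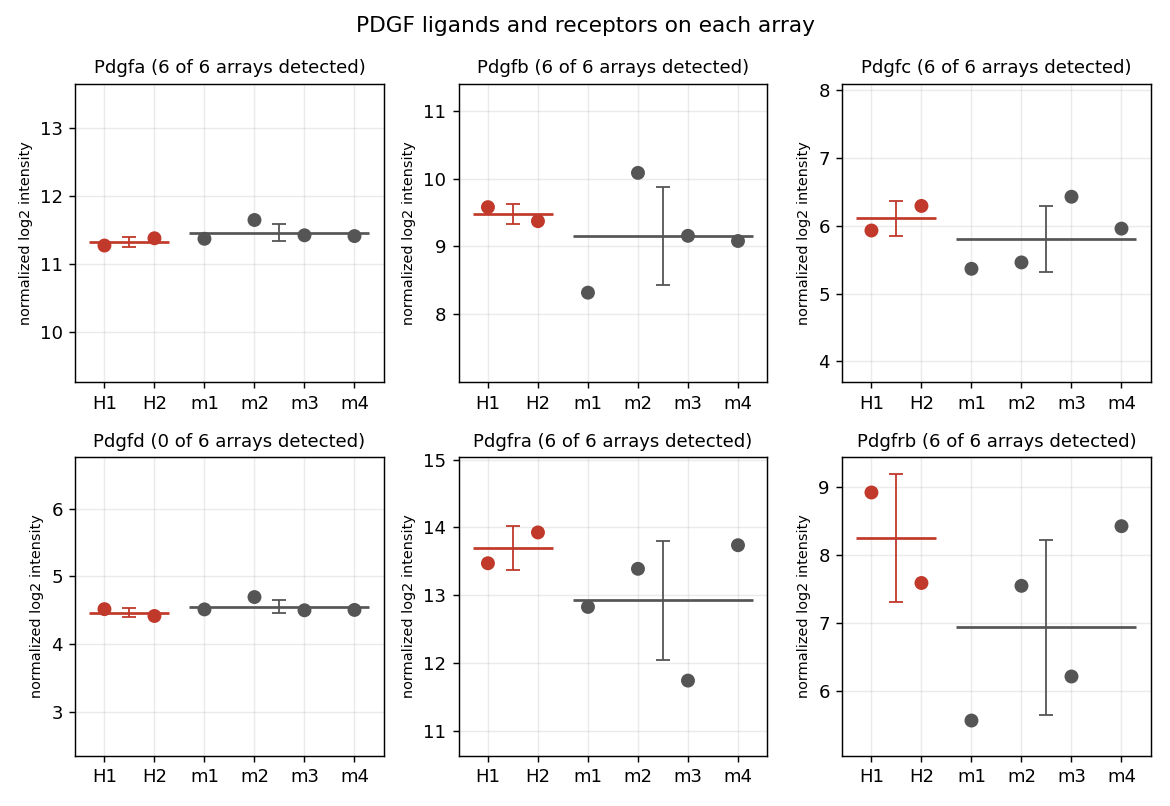
Normalized log2 intensity (y axis, every panel spanning the same number of log2 units) of the brightest probe of each PDGF gene on HoxA5 arrays 1 and 2 (H1 and H2, red) and mCherry arrays 1 to 4 (m1 to m4, grey), with group mean (line) and SD (bar). Pdgfa stays within 0.38 log2 units over the 6 arrays, Pdgfrb spans 3.36, and the groups overlap in every panel.

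Pdgfa encodes the A chain, a ligand of the α receptor only. Its log2 intensity was 11.27 and 11.38 on HoxA5 arrays 1 and 2, and 11.37, 11.65, 11.42 and 11.41 on mCherry arrays 1 to 4. The highest value, on mCherry 2, was 1.30 times the lowest, on HoxA5 1, on the linear scale. Only 2.63% of the genes tested had a smaller range over the 6 arrays, where the median range was 1.11 log2 units. The group means were 11.32 ± 0.0760 (SD, n = 2) in HoxA5 and 11.46 ± 0.125 (SD, n = 4) in mCherry tumours, a log2 difference of -0.14 (SE 0.207, limma adjusted p = 0.712). The 95% interval of the fold, HoxA5 over mCherry, ran from 0.658 to 1.25. The sign of this difference turned with median scaling, where it was 0.03 while the median of all genes moved from 0.072 to 0.20.

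Pdgfb, the gene of the B chain, binds both receptors and is the gene whose virus induced the tumours. Its brighter probe read 9.58 and 9.37 in the HoxA5 pair, and 8.32, 10.08, 9.16 and 9.08 on mCherry arrays 1 to 4. Both the lowest and the highest tumour were mCherry tumours, 3.40-fold apart on the linear scale, and the HoxA5 pair lay between them. The means were 9.48 ± 0.146 (SD, n = 2) and 9.16 ± 0.724 (SD, n = 4), and the log2 difference was 0.32 (SE 0.433, limma adjusted p = 0.684). Its 95% interval as a fold ran from 0.635 to 2.44. A second Pdgfb probe, annotated to the same transcript, was not above background on any array (detection p from 0.0705 to 0.373). The probes' own sequences were not used here. Whether the brighter probe reads transcript of the host gene, of the viral insert or of both was not tested, so these values do not compare the dose of the driver. Without mCherry 1 the difference was 0.035, and without mCherry 2 it was 0.62.

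Pdgfc encodes a C chain with a CUB domain, a ligand of the α receptor that needs cleavage outside the cell. It was dim but detected throughout by 1 of its 3 probes, at 5.93 and 6.29 in the HoxA5 pair and 5.37, 5.46, 6.43 and 5.96 on mCherry arrays 1 to 4. The highest value, on mCherry 3, was 2.09 times the lowest, on mCherry 1. The means were 6.11 ± 0.256 (SD, n = 2) and 5.80 ± 0.491 (SD, n = 4), a log2 difference of 0.31 (SE 0.375, limma adjusted p = 0.644). It was 0.094 without background correction, and the uncorrected intensities ran only from 167.9 to 220.1. The other Pdgfc probes were detected on 0 arrays.

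Pdgfd, the gene of the D chain and a ligand of the β receptor, gave no signal above background. Its brighter probe read 4.52 and 4.42 in the HoxA5 pair and 4.51, 4.69, 4.50 and 4.50 on mCherry arrays 1 to 4, with detection p-values from 0.251 to 0.840. The other probe had detection p-values from 0.709 to 0.854. Values at background have no order, and no difference between the groups is given. A low level of Pdgfd is not detectable on these arrays, and its absence is not shown.

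Pdgfra, the α receptor, had a bright probe, with intensities from 3046.5 to 19059.9 before correction and the highest intensity of any probe at 44934. Its normalized log2 intensity was 13.47 and 13.93 in the HoxA5 pair, and 12.83, 13.39, 11.74 and 13.74 on mCherry arrays 1 to 4. HoxA5 2 was highest, mCherry 3 lowest by more than 1 log2 unit, and mCherry 4 stood between the HoxA5 arrays. The lowest and highest tumours were 4.55-fold apart, and 86.1% of genes had a smaller range. The means were 13.70 ± 0.321 (SD, n = 2) and 12.92 ± 0.874 (SD, n = 4), 1.71-fold higher in HoxA5 tumours with a log2 difference of 0.78 (SE 0.468, limma adjusted p = 0.337). The 95% interval of the fold ran from 0.826 to 3.54. The log2 difference was 0.38 without mCherry 3 and 1.05 without mCherry 4, and neither passed (adjusted p = 0.511 and 0.102).

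A second Pdgfra probe, annotated to the cDNA AK011378, lay near background. It read 5.16 and 5.38 in the HoxA5 pair and 4.93, 4.92, 4.61 and 5.09 on mCherry arrays 1 to 4, and was detected on HoxA5 2 alone. No mCherry array measured it above background, so no difference between the groups is given.

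Pdgfrb, the β receptor, was the most variable of the family. It read 8.93 and 7.59 in the HoxA5 pair, and 5.56, 7.55, 6.21 and 8.43 on mCherry arrays 1 to 4. HoxA5 1 and mCherry 4 were high, mCherry 1 and mCherry 3 were low, and HoxA5 2 was within 0.05 log2 units of mCherry 2. The extremes were 10.3-fold apart, and 95.7% of genes had a smaller range. Among the mCherry arrays alone its SD was larger than that of 98.7% of genes. The means were 8.26 ± 0.944 (SD, n = 2) and 6.94 ± 1.29 (SD, n = 4), 2.50-fold higher in HoxA5 tumours with a log2 difference of 1.32 (SE 0.750, limma adjusted p = 0.308) and an interval of the fold from 0.779 to 8.01. The log2 difference was 0.65 without HoxA5 1 and 1.99 without HoxA5 2. It was 1.82 without mCherry 4 (adjusted p = 0.0648), a fit in which 8.58% of genes were called higher. Without background correction it was 0.73.

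**Figure D2:**
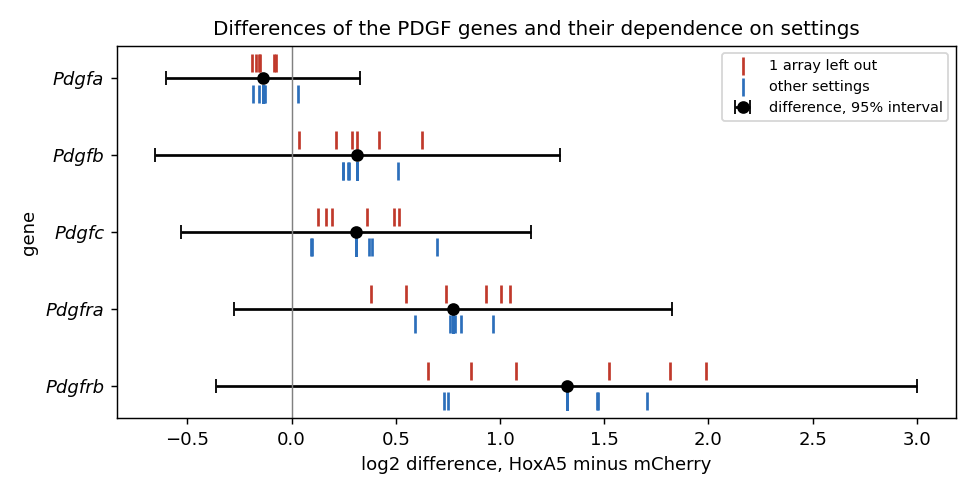
Log2 difference (x axis, HoxA5 minus mCherry) of the 5 PDGF genes above background (y axis), with its 95% interval (black). Red ticks are fits with 1 array left out and blue ticks the other settings. Every interval includes 0, and the estimates of Pdgfra and Pdgfrb are above 0 in all 18 alternatives.

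In order of the difference, Pdgfrb (1.32) and Pdgfra (0.78) were followed by Pdgfb (0.32), Pdgfc (0.31) and Pdgfa (-0.14). The intervals of all neighbours in this order overlap, and no difference between genes was tested.

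Marker RNA of several cell types and of cell division differed between the HoxA5 and mCherry samples, and these values stand beside every receptor value. Over all genes 4.64% were called lower and 1.21% higher in HoxA5 tumours. Of 7 neuron markers 6 were called lower. Rbfox3, the neuronal nuclear antigen, was at -3.74 (log2 difference, adjusted p = 0.00571), and Syt1, a vesicle calcium sensor, at -3.29. The summed level of the neuron list was 11.68 to 12.84 in the HoxA5 pair and 14.39 to 15.93 on the mCherry arrays, in log2 units. Of 7 markers of myelinating oligodendrocytes 6 were called lower. In all 7 both HoxA5 arrays lay below every mCherry array, which held for 17.2% of all genes. Mal, a myelin proteolipid, was at -3.08 and Mag, a myelin adhesion protein, at -2.39. Summed levels were 14.14 to 14.48 against 15.06 to 15.67. Of 4 choroid plexus markers 3 were called lower (summed levels 7.31 to 7.92 against 14.15 to 14.99). In all 4 both HoxA5 arrays lay below every mCherry array. Ttr, the thyroxine carrier, was at -8.37 and Clic6, an ion channel protein, at -3.65. Of 8 cell division genes 4 were called higher (summed levels 13.46 to 13.56 against 9.42 to 12.51). Among them were the kinetochore gene Cenpf at 1.75 and the mitotic kinase gene Aurka at 2.74. In all 8 both HoxA5 arrays lay above every mCherry array, which held for 18.3% of all genes. Of the 15 marker genes called and named by rule, 14 lost their call without HoxA5 2 and 9 without HoxA5 1, and Ttr, detected on 1 of the 2 HoxA5 arrays, kept it in both. Cenpf was detected on 3 of the 4 mCherry arrays. The part of tissue composition in the receptor values was not tested. In bulk tissue, fewer cells of a type and less RNA per cell cannot be told apart. Across genes, which are not independent replicates, the mCherry 4 array correlated at 0.963 and 0.962 with the HoxA5 arrays and at 0.950, 0.957 and 0.921 with mCherry arrays 1 to 3. Without it 19.9% of genes were called.

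Pdgfra was set beside the markers of oligodendrocyte progenitors, the cells it is known to label. All 11 markers were measured and none was called. Of these, 8 were lowest on mCherry 3, as Pdgfra was, against 22.5% of all genes tested. All 8 cell division genes were lowest on mCherry 3 too. Sox10, a transcription factor of the oligodendrocyte lineage, read 13.50 and 13.55 in the HoxA5 pair and 12.28, 13.04, 11.23 and 13.25 on mCherry arrays 1 to 4, so that mCherry 3 was lowest and mCherry 4 close to the HoxA5 pair. Cspg4, the NG2 proteoglycan of the same progenitors, read 10.07 and 10.52 against 8.85, 9.88, 7.56 and 9.96. Its Pearson correlation with Pdgfra over the 6 arrays, 0.987, was the third highest among the 6824 genes compared. Olig1 was also lowest on mCherry 3 but varied less, from 14.00 to 14.86. The summed level of the list was 15.50 to 15.59 in the HoxA5 pair and 14.47 to 15.62 on the mCherry arrays. Bright probes weigh most in this sum. The mean log2 level of the 11 markers was 10.07 to 10.14 in the HoxA5 pair and 8.42 to 10.08 on the mCherry arrays. The 2 markers with the smallest p were Vcan, an extracellular matrix proteoglycan, at 2.51 (adjusted p = 0.0876, detected on 2 of the 4 mCherry arrays), and Lhfpl3 at 1.43 (adjusted p = 0.158). Sox10 and Olig1 were named after their values were seen.

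Pdgfrb was compared with markers of mural cells and fibroblasts, which carry the β receptor. All 8 fibroblast markers were highest on HoxA5 1, as Pdgfrb was, against 22.8% of all genes. Of the 8, 4 were called higher in HoxA5 tumours, against 1.21% of all genes. Lum and Dcn, collagen-binding proteoglycans, rose 8.93-fold and 3.76-fold (adjusted p = 0.00921 and 0.00948). The type I collagen chain Col1a1 read 9.85 and 7.58 in the HoxA5 pair and 5.39, 6.63, 5.10 and 6.58 on mCherry arrays 1 to 4. The summed fibroblast level was 13.98 on HoxA5 1, 13.14 on HoxA5 2 and 11.94 to 12.55 on the mCherry arrays, so mCherry 4, where Pdgfrb was second highest, did not reach either HoxA5 array. Col1a1 was named after its values were seen.

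Mural cell markers moved both ways. Of 11 measured, the contractile genes Acta2 and Tagln were called higher, Tagln by 1.42 log2 units (adjusted p = 0.0318). Over all genes 1.21% were called higher and 4.64% lower. Tagln was detected on only 1 of the 4 mCherry arrays, so its difference rests on a control level near background. The Tagln call was lost with the replicate number as a block (adjusted p = 0.0751) and in 5 fits with 1 array left out. In contrast, Vtn, vitronectin, was lower by 1.60 (log2 difference -1.60, adjusted p = 0.0223). Rgs5, a defining gene of brain pericytes, was at -1.21 without being called (adjusted p = 0.0599), and Abcc9 and Kcnj8, a pericyte potassium channel pair, at -0.051 and -0.18. Des and Anpep, also not called, were at 1.83 and 1.22 (adjusted p = 0.0853 and 0.0719), Anpep with detection on 1 mCherry array. In the whole list 5 of the 11 differences were above 0. Of the 11 genes, 5 were highest on HoxA5 1 and 4 lowest on mCherry 1, against 22.8% and 18.1% of all genes. The summed mural level was 12.19 to 13.29 in the HoxA5 pair and 11.80 to 12.41 on the mCherry arrays. The mural genes other than Vtn and Tagln were named after their values were seen.

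**Figure D3:**
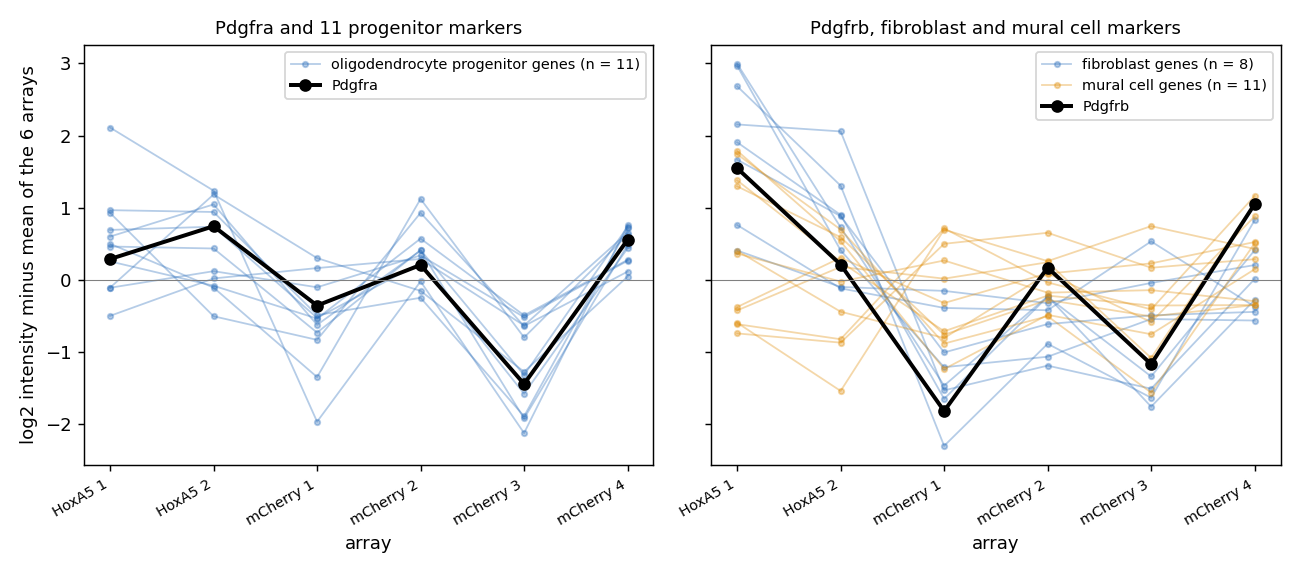
Log2 intensity minus the gene's mean over the 6 arrays (y axis) on each array (x axis). Left, Pdgfra (black) and the 11 oligodendrocyte progenitor markers (blue), of which 8 are lowest on mCherry 3. Right, Pdgfrb (black), 8 fibroblast markers (blue), all highest on HoxA5 1, and 11 mural cell markers (orange), which do not share one pattern.

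For Pdgfb the natural source in brain is endothelium. Of 10 endothelial markers 1 was called, Ly6c1, a surface antigen, at -1.49 (adjusted p = 0.0483), where 5.85% of all genes were called. That call was lost in 12 of the 18 alternatives, among them median scaling (adjusted p = 0.0723) and the authors' values (0.0602). The list median was 0.46, against 0.072 for all genes. Emcn, endomucin, was at 1.07 (adjusted p = 0.144). Of the 10 genes, 2 were highest on mCherry 2, where Pdgfb peaked, and 4 were lowest on mCherry 1, where it was lowest. Over all genes these shares were 9.73% and 18.1%.

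Genes that PDGF induces within minutes to hours of stimulation were compared with Pdgfb in the same way. None of the 8 measured was called (median 0.31). On mCherry 2, 4 of the 8 were highest, as Pdgfb was, against 9.73% of all genes. Among them were the immediate early genes Fos, Junb and Egr1. Egr1 read 13.34 and 13.62 in the HoxA5 pair and 13.27, 14.60, 13.33 and 13.79 on mCherry arrays 1 to 4. Junb read 9.69 and 9.31 against 8.76, 11.65, 9.18 and 9.63. These genes are also induced by many other stimuli, handling of tissue among them. The 3 with the smallest p were Ier3 (difference 1.26, adjusted p = 0.135), and the chemokine genes Cxcl1 (2.16, adjusted p = 0.221) and Ccl2 (1.10, adjusted p = 0.368). Fos, Junb and Egr1 were named after their values were seen.

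Around the receptors, none of the 50 measured genes of the 6 pathway lists was called. Of the 50, 8 had an unadjusted p under 0.05 in limma's test, a smaller share than the 24.6% of all genes. The proteases that mature the ligands had a median difference of 0.57 (6 genes, 5 above 0). Plau, the urokinase that can activate the D chain, read 8.004 and 7.57 in HoxA5 tumours against 5.39, 6.94, 5.82 and 6.91 and was 2.87-fold higher without being called (adjusted p = 0.102). Furin, which cuts the A and B chains, was at 0.77, and Plat, the tissue plasminogen activator that activates the C chain, at 0.72. The genes of PDGF-binding and co-receptor proteins had a median of 0.73 (4 genes, all above 0). All 4 were lowest on mCherry 1, as Pdgfrb, Pdgfb and Pdgfc were, against 18.1% of all genes. Hspg2, the basement membrane proteoglycan perlecan, was at 2.15 (adjusted p = 0.134), the co-receptor Nrp1 at 0.79 and Sparc, a matrix protein that binds PDGF, at 0.39. For Plau, Hspg2 and Nrp1 too, both HoxA5 arrays lay above every mCherry array, which held for 18.3% of all genes.

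The 22 measured adaptors and effectors had a median of 0.53, with 17 above 0. For 7 of the 22 both HoxA5 arrays lay above every mCherry array, a larger share than the 18.3% of all genes. That excess was not tested. Rasa1, a Ras GTPase activator that docks on the β receptor, was at 0.82 (adjusted p = 0.0942), Pik3r1, the regulatory subunit of phosphatidylinositol 3-kinase, at 0.88, and Shc1, an adaptor towards Ras, at 0.78. The 5 phosphatases and ubiquitin ligases had a median of 0.19, with Ptpn1 at 0.73, Ptpn2 at 0.56 and Acp1 at -0.35. The other class III receptors and their ligands had a median of -0.44, with 1 of 5 above 0. Here Kitl, the ligand of Kit, was at -0.75, Kit at -0.44 and Il34, a ligand of Csf1r, at -0.86, with adjusted p-values from 0.282 to 0.390. Without mCherry 4, 7 of these 50 genes were called, all higher in HoxA5 tumours, in a fit that called 8.58% of all genes higher and 19.9% in either direction. These were Plau, Hspg2, Ier3, Pik3r1, Gab1, Nras and Stat3, the last 3 named after their values were seen.

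**Figure D4:**
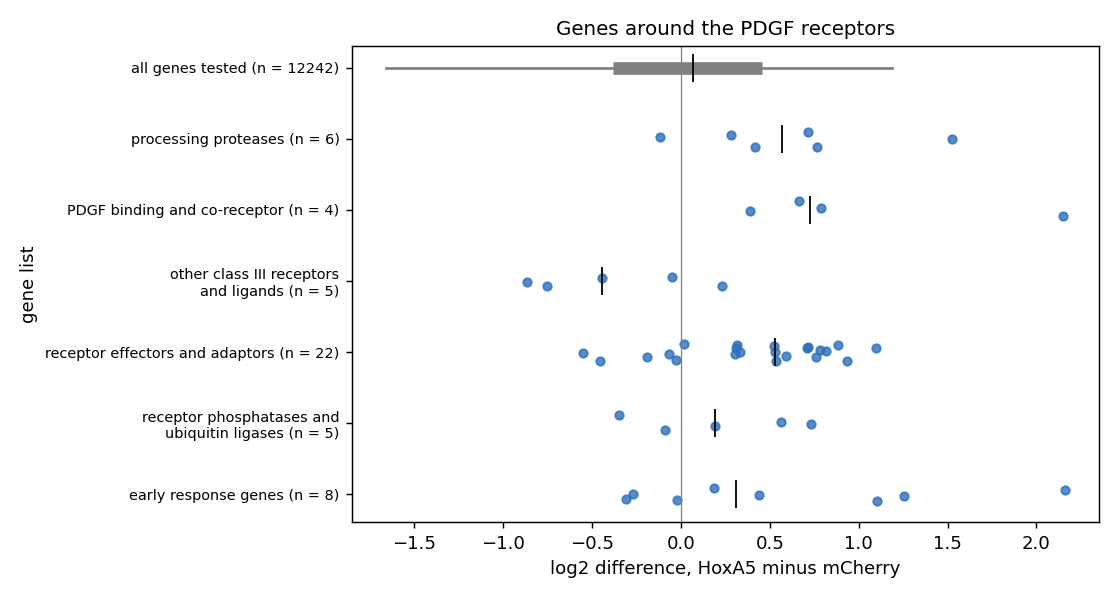
Log2 difference (x axis, HoxA5 minus mCherry) of each measured gene (blue points) in the 6 lists around the PDGF receptors (y axis), with list medians (black ticks). The grey bar gives the middle of all 12242 genes, from -0.38 to 0.46 at the quartiles, and the thin line runs from the 5th to the 95th percentile, -1.66 to 1.19.

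The genes whose pattern over the 6 arrays was most like each PDGF gene were found by Pearson correlation among 6824 genes that spanned at least 1 log2 unit. With 6 arrays and so many genes, high values describe these arrays only. Pdgfra was nearest to Septin2, a filament-forming GTPase (0.989), Mapre1, a microtubule end-binding protein (0.987), and Cspg4, and most opposed to Prr16 (-0.996). Pdgfrb was nearest to Txlna (0.994), Eml4 (0.993) and Ncf4, a subunit of the phagocyte oxidase (0.993), and most opposed to Mef2b (-0.997). Pdgfb was nearest to Snapc3 (0.989), Dot1l, a histone methyltransferase (0.984), and Zswim6 (0.984), and most opposed to Sirt5 (-0.973). Pdgfc was nearest to Esyt3 (0.948), Rapgef6 (0.940) and Gtf2ird1 (0.933), and most opposed to Trim69 (-0.893). Pdgfa was nearest to R3hdm1 (0.982), Lonrf1 (0.980) and the chaperone gene Dnajb4 (0.969), and most opposed to Ap5b1 (-0.991). These lists share no gene, and in each the arrays of both groups are pooled.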

How the data were processed

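Total RNA from tumour tissue was hybridised to Illumina mouse bead arrays with biotin label. The authors deposited 1 linear intensity per probe (45281 probes) labelled as not normalized, with detection p-values beside them, per the file headers. A second deposited table holds the authors' log2 values, for which the submitters' processing notes name limma without a version. Median intensities were 136.1 to 166.8 and 19950 to 21904 probes were detected per array, and the number of arrays limits precision.

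The function neqc corrected the intensities for background, applied quantile normalization and took log2 (limma 3.58.1, R 4.3.3, offset 16, negative controls inferred from detection p), which understates folds of dim genes. Probes with 1 symbol and a detection p under 0.05 on at least 2 arrays were kept (19479), each gene by its brightest probe. Groups came from the sample titles. HoxA5 (n = 2) and mCherry (n = 4) arrays were compared with lmFit and eBayes with an intensity trend and Benjamini-Hochberg adjustment over 12242 genes; the fit was tested on simulated data. Members and lists were chosen with earlier results of these data known. Named genes are the members, the 3 pathway genes and 2 marker genes per list with the smallest p, and the 3 most and 1 least correlated genes per member. Alternatives were background, scaling, the authors' values, filters, probe joining, variance models, weights, the replicate number and leaving out each array.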

Additional observations from a re-analysis of the deposited data

Results flagged for a closer look

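On 5 occasions 1 of the 4 mCherry arrays stood apart from the other mCherry arrays, its gap to the nearest of them, as a share of their range, being above Dixon's 95% critical value. Chance gives this in about 1 of 20 groups of 4, and 11 member probes, 60 named genes and 17 list means were examined. The brighter Pdgfd probe read 4.695 on mCherry 2, below detection like the others. On the same array Lonrf1 read 7.987 and Ap5b1 5.165, the genes named as like and opposed to Pdgfa, which was also highest there. Both were picked by their correlation with Pdgfa over these arrays, so the rate of 1 in 20 does not apply to them. Ptpn2 read 5.7 on mCherry 3. Sparc read 12.26 on mCherry 1, the lowest of the 6 arrays.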

How the results depend on the processing

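In all 18 alternatives, 0 PDGF genes were called and Pdgfb, Pdgfc, Pdgfra and Pdgfrb kept a positive difference; Pdgfa turned to 0.031 with median scaling. With 1 array left out, differences ran from -0.19 to -0.077 (Pdgfa), 0.035 to 0.62 (Pdgfb), 0.13 to 0.52 (Pdgfc), 0.38 to 1.05 (Pdgfra) and 0.65 to 1.99 (Pdgfrb). Of 12242 genes, 148 were higher and 568 lower. Higher genes numbered 642 with array weights, 265 with median scaling and 95 without a detection filter, and 0 to 1039 with 1 array left out (0 without HoxA5 2, with 1876 at an unadjusted p under 0.05; 1039 without mCherry 4). Lower genes numbered 1104 with array weights, 362 in the authors' values and 370 when background was not corrected, and 2 to 1372 with 1 array left out. Calls higher in HoxA5 made up 20.7%, against 37.7% with median scaling and 30.1% without background correction. Marker genes called were 29, and 1 (without HoxA5 2) to 45 (without mCherry 4) with 1 array left out. Pathway genes called were 0, but 1 with array weights or median scaling (Rasa1), 1 without a detection filter (Ier2), and 0 to 7 with 1 array left out. The cause of these changes was not tested. Acp1 ran from -0.81 to 0.12 and Pf4 from -0.020 to 1.84 with 1 array left out, each with its sign turned without HoxA5 1. A group of 1 array is assumed to vary like the other.

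The groups share replicate numbers 1 and 2 only. Deviations of same-numbered arrays from their group means correlated at -0.364 and -0.236 across genes. The deviations of 2 HoxA5 arrays from their own mean mirror each other, so these values are not independent. Whether the numbers pair the samples cannot be told from them. With the replicate block, 236 genes were higher, 1 pathway gene (Cxcl1) was called, and Pdgfra and Pdgfrb were at 0.59 and 1.70.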

Other observations

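The remaining cell type lists bear on other sources and targets of PDGF. Of 8 markers of microglia and macrophages, cells that carry a related class III receptor, none was called, and Tmem119 was at 0.58 and Adgre1 at 0.45 (adjusted p = 0.356 and 0.426). Summed levels were 13.34 to 13.43 in the HoxA5 pair and 12.89 to 13.36 on the mCherry arrays. Of 3 measured platelet and megakaryocyte genes, the blood source from which PDGF was named, none was called, with Gp1bb at 0.78 and Pf4 at 0.91 (adjusted p = 0.286 and 0.294), and the list was highest on HoxA5 1 (8.80 against 7.23 to 7.89 on the other arrays). Of 8 astrocyte markers 2 were called lower, against 4.64% of all genes. These were the connexins Gjb6, at -2.90, and Gja1, at -1.28. Only 1 of the 8 had a difference above 0. In 5 both HoxA5 arrays lay below every mCherry array, against 17.2% of all genes. The Gja1 call was lost in 7 of the 18 alternatives, among them median scaling (adjusted p = 0.0747), and the Gjb6 call in 3 that left out an array. Summed levels were 15.04 to 15.05 against 15.32 to 16.02 on the mCherry arrays, while Pdgfa, which astrocytes express, was level.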
